A study of Mus musculus with 8 samples.

Results

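The genes described here encode the steps that take glucose into the cell, break it down to pyruvate, and then either turn pyruvate into lactate or pass it to the mitochondrion. They were taken from a list of 39 genes of glucose transport, glycolysis, lactate handling and the pyruvate dehydrogenase complex, and each was read through the probe sets that the array annotation gives to that gene symbol and no other. Of the 39 genes, 35 had such a probe set and 32 entered the test, out of 12069 named genes tested on the whole array. Gpi1, Pfkfb1, Eno1 and Mpc2 had no single-symbol probe set and were not analysed here. Pfkfb4 and Pdk2 were too dim: the filter on mean signal removed them, and they were above background on 2 and 3 mutant arrays and on 0 control arrays. Gapdh was read only through 3 array-control probe sets, which stood outside the test.

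RNA came from mouse atrioventricular canals, the part of the embryonic heart where a sleeve of muscle surrounds the endocardial cushions from which valves grow. The 4 mutant pools were Gata4flox/flox; T2Cre+, called Gata4T2del, in which Tie2-Cre removes Gata4 from endothelial cells and from cushion mesenchyme of endothelial origin. The 4 control pools were Gata4flox/flox, with no Cre in their label, and all 8 pools had a mixed C57BL6/129 background. Each pool held 10 microdissected canals, 50 ng of total RNA was amplified, and 1 Affymetrix mouse expression array was hybridised per pool. The labels give no age for the embryos. The question the design puts to these genes is whether their mRNA levels in the canal differ when Gata4 is lost from the endothelial lineage, while Tie2-Cre does not target heart muscle. Because whole canals were pooled, fewer cells of a type and less RNA per cell cannot be told apart, and p-values measure only the spread between these pools.

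In glycolysis, glucose enters through transporters of the Slc2a family, is trapped by hexokinase, committed by phosphofructokinase, cut into triose phosphates by aldolase, and carried through a run of payoff steps to pyruvate kinase. Pyruvate is then reduced to lactate by lactate dehydrogenase, or enters the mitochondrion through the pyruvate carrier and is oxidised by the pyruvate dehydrogenase complex, which its kinases switch off. Most steps have several isoforms from separate genes, and muscle has forms of its own for phosphoglycerate mutase (Pgam2) and enolase (Eno3). The embryonic heart is known for a high use of glucose and lactate before fatty acids become the main fuel after birth.

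All values below are log2 of the deposited signal plus 16 after quantile normalisation, a scale on which 1 unit is a doubling and small signals are compressed. Levels of different probe sets are not set against each other, since each probe set has its own response. Changes are mutant minus control from limma with array weights, so a change can differ from the plain difference of the group means. Controls 2 and 3 had a median signal on the bacterial control probe sets of 158 and 135, against at most 26.0 on the mutant arrays and 39.3 and 19.4 on controls 1 and 4, and they received weights of 0.302 and 0.35. The weights were 1.36 and 0.867 on controls 1 and 4. On mutants 1 to 4 they were 1.29, 0.888, 2.80 and 2.50, so mutants 3 and 4 counted most in the fits. For dim genes controls 2 and 3 set much of the control spread, so the plain difference without them is given where it matters. Gata4 itself read 11.10, 11.28, 11.18 and 10.93 on the mutant arrays and 11.15, 11.07, 11.42 and 11.38 on the control arrays (brighter probe set, log2 change -0.15, SE 0.11, limma adjusted p = 0.585). Its dimmer probe set had a change of 0.98 (SE 0.45, adjusted p = 0.388) and was above background on all 4 mutant arrays and on 2 control arrays. Where the probe sets lie relative to the deleted exons was not examined here.

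None of the 32 tested genes passed an adjusted p of 0.05, and the smallest adjusted p among them was 0.204, for Pgam2. Over the whole array 7 probe sets were higher (0.0259%) and 5 lower (0.0185%) of 27022 at that threshold, and counting 1 probe set per gene 8 of 12069 genes passed (0.0663%). At an unadjusted p under 0.05, 4 glycolytic and pyruvate genes were higher in mutants (Pgam2, Pfkp, Eno3 and Pdk1) and 0 were lower, against 7.31% of all tested genes higher and 5.61% lower. In 5 genes every mutant array was above every control array (Hk2, Pfkp, Pfkfb3, Pgam2 and Eno3) and in 0 genes the reverse, against 4.97% and 3.19% of all tested genes.

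The changes were small and leaned one way. The fitted change was positive for 29 of the 32 genes, with a median of 0.11 and a range of -0.10 to 0.51, whereas 53.2% of all 12069 genes had a positive change and their median was 0.02. Of these genes, 16 lay in the brightest of 5 equal signal classes, where 15 of them and 49.5% of all genes were positive. Another 9 lay in the next class, where 7 of them and 52.7% of all genes were positive. With plain means and without controls 2 and 3, 27 of the 32 differences were positive with a median of 0.08, against 49.1% of all genes and a median of -0.01. A sign of RNA quality differed between the groups, with overlap: the log2 ratio of 3′ to 5′ signal of the Actb array controls was 1.31 to 1.51 on the mutant arrays and 1.14 to 1.40 on the control arrays, while that of Gapdh was 0.31 to 0.42 on the mutant arrays and 0.36 to 0.48 on the control arrays. With the mean of the Actb and Gapdh ratios as a covariate, 26 of the 32 changes were positive and their median was 0.06. The 3 genes with a negative change in the fit without it were Slc2a4, Pgam1 and Dlat.

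**Figure D1:**
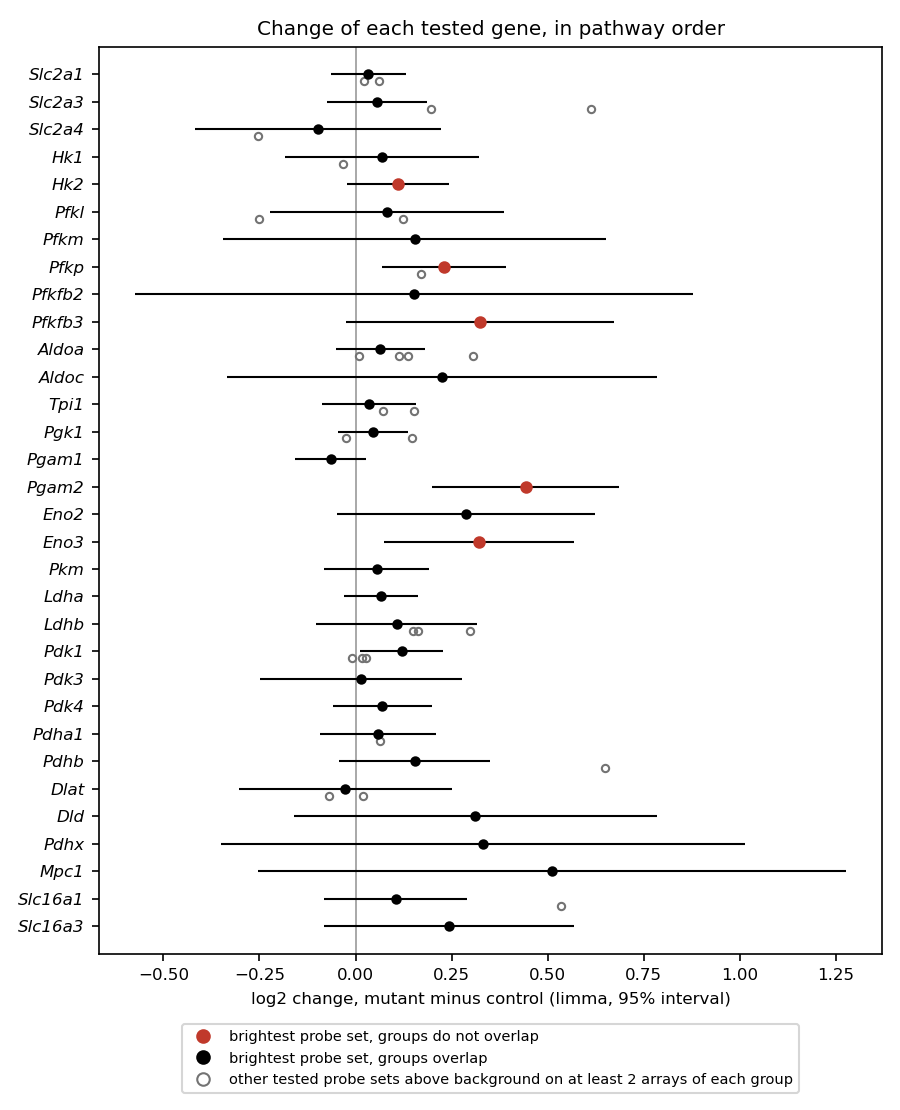
Log2 change, mutant minus control, of the brightest probe set of each of the 32 tested genes, in pathway order down the page, with the 95% interval of the limma fit as a line. Red points mark the 5 genes whose arrays do not overlap between groups, and open circles give other tested probe sets of the same gene that were above background on at least 2 arrays of each group. Most points lie to the right of 0 and most intervals cross it.

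The glucose transporters were flat at their brightest probe sets. Slc2a1, the broadly expressed transporter, read 14.20, 14.06, 14.08 and 14.20 on the mutant arrays and 14.12, 14.10, 14.14 and 14.06 on the control arrays. The groups overlapped, the change was 0.03 (SE 0.05, adjusted p = 0.785), and the other 2 probe sets gave 0.06 and 0.02. Slc2a3, a high-affinity transporter, had a change of 0.06 (SE 0.06, adjusted p = 0.729) at its brightest probe set. Its second probe set read 13.24, 13.12, 13.01 and 13.08 in mutants and 12.94, 12.78, 12.90 and 12.84 in controls. There the 2 groups did not overlap, and the change was 0.20 (SE 0.06, adjusted p = 0.273), so the probe sets of Slc2a3 differ on whether the groups separate. Slc2a4, the insulin-responsive transporter of muscle and fat, read 9.67, 9.45, 9.74 and 9.85 in mutants and 9.81, 10.21, 10.11 and 9.60 in controls. Its change of -0.10 (SE 0.15, adjusted p = 0.816) came with overlapping groups. The difference was -0.03 without controls 2 and 3, and the change ranged from -0.34 to -0.04 when 1 array was left out, at its lowest without control 4.

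At the first steps inside the cell, the inducible hexokinase and the platelet form of phosphofructokinase separated the groups by a small margin. Hk2, the hexokinase of muscle and other insulin-sensitive tissues, read 12.55, 12.50, 12.50 and 12.57 in mutants and 12.44, 12.23, 12.49 and 12.44 in controls. The lowest mutant array stood only just above the highest control array, and the change was 0.11 (SE 0.06, adjusted p = 0.468). Hk1, the constitutive hexokinase, had a change of 0.07 (SE 0.12, adjusted p = 0.837) with overlapping groups. Pfkp read 11.89, 11.83, 11.81 and 11.80 in mutants and 11.61, 11.70, 11.66 and 11.50 in controls. Its means were 11.83 ± 0.04 and 11.62 ± 0.09 (SD, n = 4 arrays each), and the change was 0.23 (SE 0.08, adjusted p = 0.28). A second Pfkp probe set gave 0.17 (SE 0.19) with overlapping groups, and the dimmest was above background on only 1 control array, so no size is given for it. The liver form Pfkl and the muscle form Pfkm did not separate the groups. Pfkl had a change of 0.08 (SE 0.14, adjusted p = 0.841), while its 2 other probe sets gave 0.12 and -0.25. Pfkm read 9.16, 9.55, 9.27 and 9.11 in mutants and 9.27, 7.88, 8.27 and 9.51 in controls, and its low values were those of controls 2 and 3. Its change of 0.15 (SE 0.24, adjusted p = 0.81) stood against a difference of -0.12 without those 2 arrays.

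Enzymes of the Pfkfb family make and break the fructose bisphosphate that activates phosphofructokinase. Pfkfb3, the form with the strongest kinase bias, read 9.43, 9.52, 9.46 and 9.80 in mutants and 9.23, 9.12, 9.33 and 9.30 in controls. All mutant arrays were above all control arrays, and the change was 0.32 (SE 0.17, adjusted p = 0.427), with a difference of 0.29 without controls 2 and 3. Mutant 4 was the highest array, and without it the change was 0.21 (adjusted p = 0.693). Its second probe set did not pass the filter and was above background on 1 array of each group. Pfkfb2, the heart form, had a change of 0.15 (SE 0.34, adjusted p = 0.879) at its brightest probe set. That probe set was above background on 3 control arrays and lowest on control 2, at 7.20. Without controls 2 and 3 its difference was -0.16. A dimmer Pfkfb2 probe set had a negative change (adjusted p = 0.24), and it was above background on only 1 mutant array and 3 control arrays, so no size is given for it.

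From aldolase to pyruvate kinase, the muscle isoforms Pgam2 and Eno3 had the 2 largest changes. Pgam2, the muscle phosphoglycerate mutase, read 11.04, 10.77, 11.02 and 11.19 in mutants and 10.66, 10.48, 10.41 and 10.66 in controls. Its means were 11.01 ± 0.17 and 10.55 ± 0.13 (SD, n = 4 arrays each) with no overlap, and the fitted change was 0.44 (SE 0.12, 95% interval 0.20 to 0.69), a ratio of 1.36. That change did not pass the threshold (adjusted p = 0.204), and the difference without controls 2 and 3 was 0.35. Pgam1, the form of most tissues, read 13.62, 13.55, 13.59 and 13.64 in mutants and 13.67, 13.61, 13.64 and 13.71 in controls. Its groups overlapped and its change was -0.06 (SE 0.04, adjusted p = 0.545). Eno3, the muscle enolase, read 10.87, 11.07, 10.84 and 10.77 in mutants and 10.66, 10.13, 10.43 and 10.51 in controls. No control array reached the lowest mutant array, and the change was 0.32 (SE 0.12, adjusted p = 0.31). Eno2, the enolase of neurons, read 10.97, 10.43, 10.92 and 10.72 in mutants and 10.78, 9.76, 10.16 and 10.50 in controls. Its groups overlapped, the change was 0.29 (SE 0.16, adjusted p = 0.46), and the difference was 0.12 without controls 2 and 3, against 0.31 for Eno3.

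Single control arrays decided whether some of these genes passed. Without control 1, Pgam2 had a change of 0.57 (limma adjusted p = 0.0384) and Eno2 of 0.69 (adjusted p = 0.0384). The pyruvate carrier gene Mpc1 also passed as higher (adjusted p = 0.0293). Without control 4, Pgam2 had a change of 0.56 (adjusted p = 0.041), and Mpc1 passed as higher (adjusted p = 0.035). No size is given for Mpc1 in these fits, since its probe set was not above background on controls 2 and 3. Eno3 had a change of 0.49 (adjusted p = 0.0598) without control 1 and did not pass. In the fits without control 1 and without control 4, 5.24% and 4.78% of all probe sets passed as higher, against 0.0259% with all arrays, and controls 2 and 3 made up 2 of the 3 control arrays left.

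**Figure D2:**
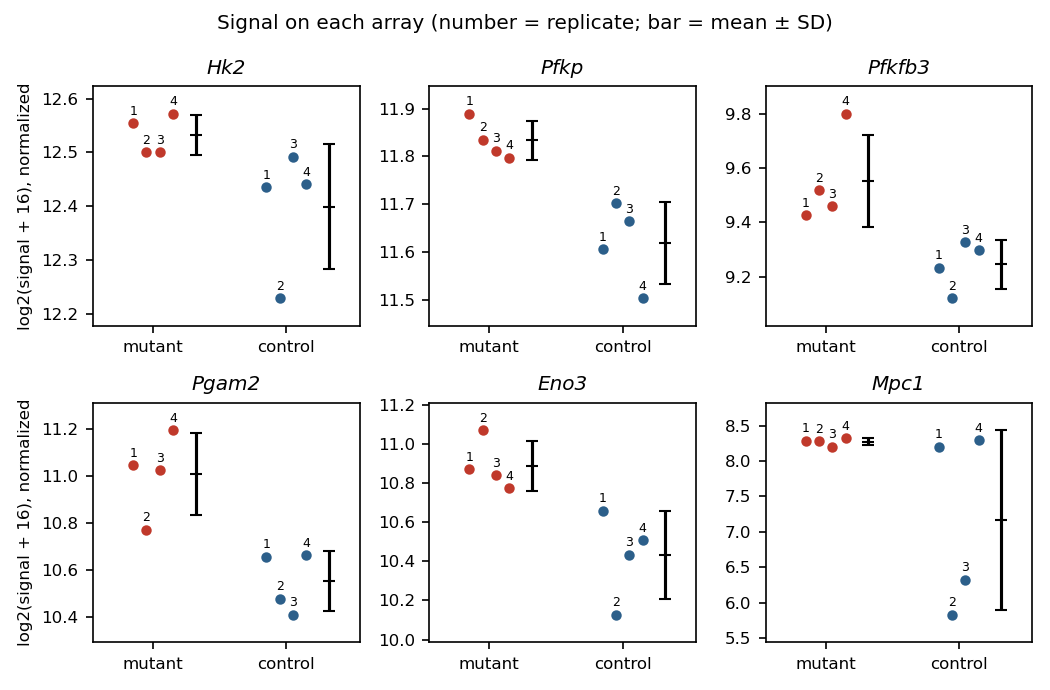
Normalised log2(signal + 16) on each array for 6 genes, mutant arrays left of control arrays, with the replicate number at each point and the group mean and SD as a bar (n = 4 each). Each panel has its own axis, which does not start at 0. Pgam2, Eno3, Pfkp, Pfkfb3 and Hk2 show no overlap, while the 2 low control points of Mpc1 come from controls 2 and 3.

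The promoter of Pgam2 is shown beside that of Pgam1 because this was the only isoform pair whose arrays separated. Ldha was chosen with no rule set beforehand. Its first promoter held the hypoxia response core 5 times, the most of any window searched, while its own change was 0.07 with overlapping groups. Each promoter shown is the 250 bases before the RefSeq start on GRCm38.p6, written along the gene's strand.
Pgam2, chr11:5803797-5804046, minus strand: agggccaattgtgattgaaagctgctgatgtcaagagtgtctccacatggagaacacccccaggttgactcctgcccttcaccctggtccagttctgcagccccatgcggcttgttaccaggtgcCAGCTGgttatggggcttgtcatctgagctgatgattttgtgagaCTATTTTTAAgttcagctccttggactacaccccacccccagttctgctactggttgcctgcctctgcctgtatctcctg
Pgam1, chr19:41911621-41911870, plus strand: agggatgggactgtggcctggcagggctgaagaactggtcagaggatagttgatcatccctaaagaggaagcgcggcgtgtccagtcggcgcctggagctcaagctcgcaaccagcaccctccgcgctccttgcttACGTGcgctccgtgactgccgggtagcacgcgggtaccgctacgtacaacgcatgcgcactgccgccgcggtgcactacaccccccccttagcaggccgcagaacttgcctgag
Ldha, chr7:46845554-46845803, plus strand: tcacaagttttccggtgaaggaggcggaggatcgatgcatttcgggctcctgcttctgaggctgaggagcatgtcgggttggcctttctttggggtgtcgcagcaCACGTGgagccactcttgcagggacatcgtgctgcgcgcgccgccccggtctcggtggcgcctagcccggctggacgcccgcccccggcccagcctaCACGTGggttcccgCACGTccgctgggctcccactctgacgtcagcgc
Capitals mark CAGCTG and the MEF2 consensus in Pgam2, and ACGTG on either strand in Pgam1 and Ldha. In Pgam2 the MEF2 match began 80 bases and CAGCTG 125 bases before the start. Pgam1 held 1 match to ACGTG and Ldha 5, in the first of its 2 promoters, where a CACGTG counts on both strands.

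The search covered 57 promoter windows of 37 genes on the list, each the 250 bases before the start, on both strands. ACGTG, the core that hypoxia-inducible factors bind, was present in 19 of the 57 windows, against 16.6% of 32851 mouse promoter windows of the same length. The GATA motif, searched as AGATAA or AGATAG and also as TGATAA or TGATAG, was present in 14 of the 57, against 26.5%. The MEF2 consensus was found in 2 of the 57 against 1.69%, and CAGCTG in 7 against 13%. ACGTG overlaps other E-box forms, and a match describes letters in the window only.

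The other enzymes from aldolase to pyruvate kinase had changes of 0.04 to 0.22 at their brightest probe sets. Aldoa, the muscle and embryonic aldolase, had a change of 0.06 (SE 0.06, adjusted p = 0.641), and its 5 probe sets ranged from 0.01 to 0.31, all positive. The third probe set separated the groups at 13.16, 13.28, 13.16 and 13.17 in mutants and 13.03, 12.95, 13.12 and 13.14 in controls, with a change of 0.11 (SE 0.05, adjusted p = 0.397). Aldoc, the brain form, had a change of 0.22 (SE 0.27, adjusted p = 0.748) and a difference of 0.09 without controls 2 and 3. Triose phosphate isomerase Tpi1 had 0.04 (SE 0.06), phosphoglycerate kinase Pgk1 had 0.05 (SE 0.04), and pyruvate kinase Pkm had 0.06 (SE 0.07). Pgk1 illustrates the limit of 1 probe set, since its other probe sets gave 0.15 and -0.02. For Gapdh, glyceraldehyde phosphate dehydrogenase, the array-control probe set for the middle of the transcript read 13.85, 13.92, 13.89 and 13.90 in mutants and 13.83, 13.71, 13.82 and 13.78 in controls. Those values did not overlap (exact permutation test, unadjusted p = 0.0286, the smallest that 4 against 4 arrays allow). The probe set for the 3′ end read 14.06, 14.04, 14.06 and 14.05 in mutants and 14.06, 13.98, 14.03 and 14.01 in controls, and the 5′ probe set also overlapped.

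At the pyruvate to lactate step, Ldha, the subunit that favours lactate formation, read 13.66, 13.62, 13.75 and 13.71 in mutants and 13.67, 13.65, 13.60 and 13.60 in controls. The groups overlapped, and the change was 0.07 (95% interval -0.03 to 0.16, adjusted p = 0.56). Ldhb, the subunit of oxidative tissue, had changes of 0.11, 0.15, 0.16 and 0.30 at its 4 probe sets, and the last separated the groups (SE 0.12, adjusted p = 0.343). Slc16a1, the transporter that takes up and releases lactate with a proton, had a change of 0.10 (SE 0.09, adjusted p = 0.638). Its dimmer probe set gave 0.53 (SE 0.25, adjusted p = 0.393) with no overlap and was above background on 3 control arrays. Slc16a3, the export form of glycolytic cells, read 11.19, 11.41, 10.80 and 11.26 in mutants and 10.99, 10.38, 10.61 and 10.89 in controls. Mutant 3 lay inside the control range, and the change was 0.24 (SE 0.15, adjusted p = 0.517).

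At the mitochondrial gate, Mpc1, a subunit of the pyruvate carrier, had the largest fitted change of the 32 genes and also the largest standard error. It read 8.29, 8.28, 8.21 and 8.32 in mutants and 8.21, 5.83, 6.33 and 8.30 in controls. The 2 low values were controls 2 and 3, on which the probe set was not above background. The change was 0.51 (SE 0.36, adjusted p = 0.567), and the difference between the mutants and controls 1 and 4 was 0.02. Pdhx, the protein that anchors lipoamide dehydrogenase in the pyruvate dehydrogenase complex, showed the same dependence. It read 8.45, 8.32, 8.48 and 8.27 in mutants and 8.14, 5.87, 8.07 and 8.68 in controls, and its change of 0.33 (SE 0.32, adjusted p = 0.689) stood against a difference of -0.03 without controls 2 and 3. With 1 array left out, the Pdhx change ranged from 0.08 without control 2 to 1.03 without control 4.

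The catalytic subunits of the complex had positive changes except Dlat. Pdha1 had a change of 0.06 (SE 0.07) and Pdhb one of 0.15 (SE 0.09, adjusted p = 0.498), with 0.65 (SE 0.26, adjusted p = 0.338) at the second Pdhb probe set. Dld, the lipoamide dehydrogenase shared with other complexes, had 0.31 (SE 0.22, adjusted p = 0.572), and the difference without controls 2 and 3 was 0.03. Dlat, the acetyltransferase core, read 10.34, 10.67, 10.43 and 10.28 in mutants and 10.51, 10.33, 10.76 and 10.17 in controls. Its change was -0.03 (SE 0.13, adjusted p = 0.951), and its other probe sets gave 0.02 and -0.07.

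Among the kinases that shut the complex off, Pdk1, a hypoxia-responsive form, read 13.13, 13.14, 13.14 and 13.20 in mutants and 13.04, 12.97, 13.16 and 13.01 in controls. Control 3 stood inside the mutant range, and the change was 0.12 (SE 0.05, adjusted p = 0.359). The other 3 Pdk1 probe sets gave 0.02, -0.01 and 0.03, so the small difference was seen at the brightest probe set alone among the 4. Pdk3 had a change of 0.01 (SE 0.12) and Pdk4, the form of fasting heart and muscle, one of 0.07 (SE 0.06, adjusted p = 0.652).

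**Figure D3:**
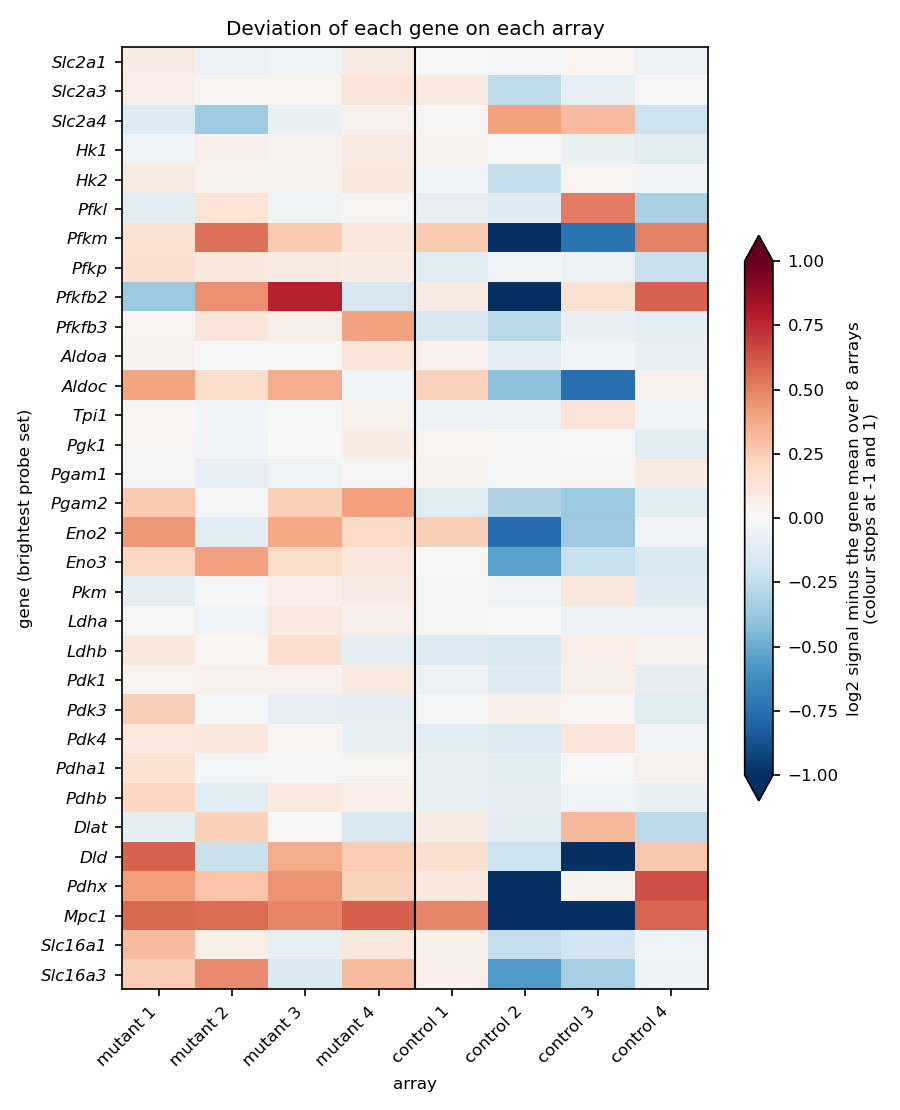
Deviation of each tested gene on each array from that gene's mean over all 8 arrays, in log2 units, with mutant arrays in the left columns and control arrays in the right columns. The colour scale stops at 1 unit in each direction, and the strongest negative cells lie in the columns of controls 2 and 3.

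Probe sets of the same gene did not always share a sign. Of the 16 genes with more than 1 tested probe set, 9 had positive changes at all of them, 1 (Slc2a4) had negative changes at all, and 6 were mixed. In all, 62 of the 70 probe sets of these genes passed the filter.

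The comparison of isoforms within an enzyme used the difference between their log2 values on the same array, which cancels a shift that both share. There were 16 pairs in 10 families, and 1 pair separated the groups. Pgam2 minus Pgam1 was -2.58, -2.78, -2.56 and -2.45 on the mutant arrays and -3.01, -3.13, -3.23 and -3.05 on the control arrays. The offset between probe sets has no meaning by itself, but it was 0.51 higher in mutants (interval 0.23 to 0.78, 2-sided exact permutation test p = 0.0286, adjusted over the 16 pairs p = 0.457). A p of 0.0286 is the smallest that 4 against 4 arrays allow, and over 16 pairs a lone value of that size cannot pass the adjustment. Without controls 2 and 3 the difference was 0.44.

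In the other 15 pairs the groups overlapped, and the intervals show which sizes were not rejected. Eno3 minus Eno2 differed by 0.00 (interval -0.46 to 0.76), so the muscle and neuronal enolases were not separated from each other. Ldhb minus Ldha differed by 0.04 (interval -0.26 to 0.26), and Hk2 minus Hk1 by 0.06 (interval -0.10 to 0.35). Pdk4 minus Pdk1 had the narrowest interval of the kinase pairs (-0.24 to 0.12) around -0.04. Slc16a3 minus Slc16a1 differed by 0.24 (interval -0.07 to 0.75). Slc2a4 minus Slc2a1 differed by -0.28 (interval -0.72 to 0.13) and by -0.07 without controls 2 and 3. Both pairs with Pfkm changed sign without those 2 arrays, as did Pfkfb3 minus Pfkfb2 and Slc2a3 minus Slc2a1. Pfkm minus Pfkl was 0.53 with all arrays and -0.33 without them, and Pfkp minus Pfkm was -0.32 with all arrays and 0.40 without them. Aldoc minus Aldoa was 0.36 with all arrays and 0.03 without them.

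**Figure D4:**
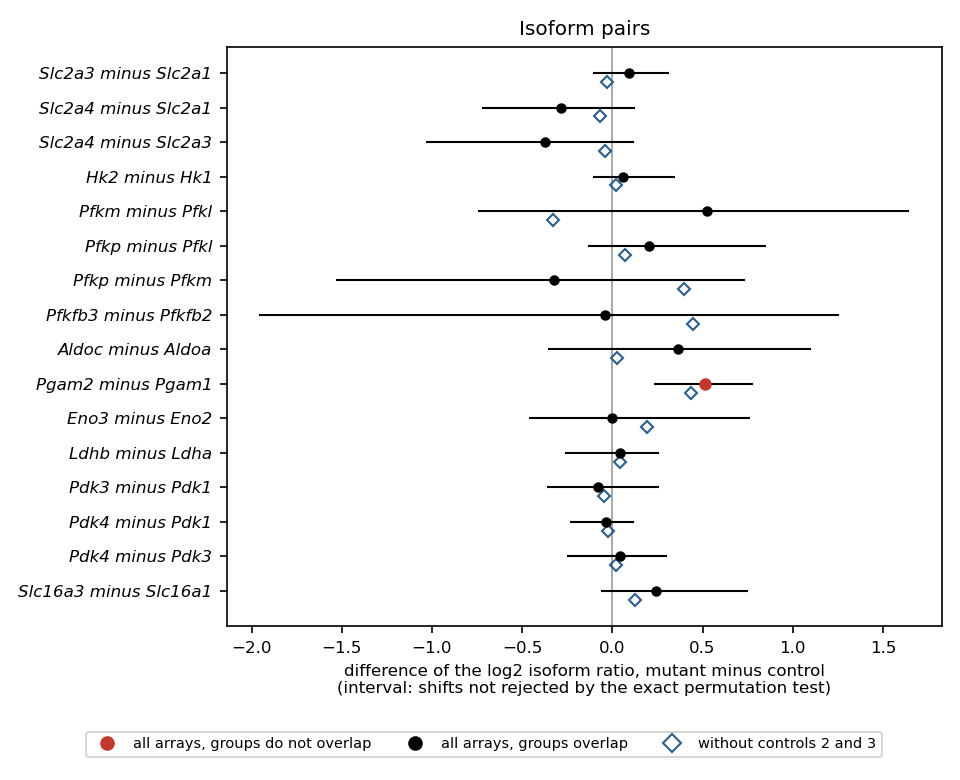
Difference between mutant and control arrays in the log2 ratio of 2 isoforms of the same enzyme, for 16 pairs. Lines give the shifts not rejected by the exact permutation test, and open diamonds give the difference without controls 2 and 3. Only Pgam2 minus Pgam1 has an interval that leaves out 0.

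Markers of heart muscle and, by a larger median change, of epicardium leaned upward in the mutant canals, as Pgam2 and Eno3 did. At the brightest probe set of each gene, all 12 cardiomyocyte markers had positive changes with a median of 0.15, and 0 passed the threshold. At an unadjusted p under 0.05, 7 of the 12 were higher and 0 lower, against 7.31% and 5.61% of all tested genes. The summed signal of the 12 markers was 100747 to 104937 in mutants and 90357 to 96828 in controls. Actn2, a Z-disc protein, had a change of 0.36 (SE 0.11, adjusted p = 0.244), and Ryr2, the calcium release channel, one of 0.16 (SE 0.06, adjusted p = 0.31), both with no overlap. A second Ryr2 probe set did pass: it read 11.15, 10.90, 11.15 and 11.05 in mutants and 10.40, 10.73, 10.48 and 10.33 in controls, a change of 0.67 (SE 0.11, adjusted p = 0.0269). The cushion mesenchyme markers summed to 10941 to 16988 in mutants and 19006 to 20054 in controls, and 6 of 8 had negative changes (median -0.59). Of these 8 markers, 4 were lower and 0 higher at an unadjusted p under 0.05. Endothelial markers did not move as a block. Tek, the angiopoietin receptor whose promoter drives the Cre, fell by 0.72 (SE 0.07, adjusted p = 0.000172), while 6 of the 8 endothelial changes were positive (median 0.43). The summed signal of all 8 was 6518 to 7049 in mutants and 7579 to 8669 in controls, but without Tek it was 2840 to 3396 in mutants and 2251 to 2557 in controls. All 7 epicardial markers had positive changes (median 0.64), with sums of 7603 to 10989 in mutants and 5329 to 6657 in controls. Of these 7 markers, 6 were higher and 0 lower at an unadjusted p under 0.05. All 6 tested erythroid markers had negative changes (median -0.42), with sums of 36697 to 45771 in mutants and 36702 to 54846 in controls. The part of these shifts in the values of Pgam2, Eno3 and the other genes was not tested.

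Pgam2 and Eno3 are also expressed in skeletal muscle, so the markers of that tissue were read too. At their brightest probe sets Myod1 and Myog were above background on 0 mutant arrays and on 3 and 1 control arrays. A second Myod1 probe set and that of Myf5 were above background on 1 array of each group. No probe set of these 3 genes passed the filter. Tnnt3, the fast troponin, had a change of -0.24 (SE 0.36, adjusted p = 0.806). The summed signal of the 4 skeletal markers was 143 to 313 in mutants and 375 to 572 in controls. That sum includes the 3 genes that did not pass the filter, so no change is read from it.

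Neighbouring pathways were read from 8 further lists, of which 65 genes were tested. Of these, 1 gene passed, against 0.0663% of all tested genes. At an unadjusted p under 0.05, 3 of the 65 were higher and 0 lower, against 7.31% and 5.61% of all tested genes. A positive change was seen in 41 (median 0.06), against 53.2% of all tested genes (median 0.02). The gene that passed was Epas1, which encodes a hypoxia-inducible factor alpha subunit prominent in endothelium and was on the list of 15 tested regulators of glycolysis. It read 10.94, 10.18, 10.62 and 10.89 in mutants and 9.66, 9.30, 8.99 and 9.55 in controls, with a change of 1.20 (SE 0.17, adjusted p = 0.0141). Hif1a, the alpha subunit of most tissues, had a change of -0.00 (SE 0.05, adjusted p = 0.993). Prkaa2, a catalytic subunit of the energy sensor AMPK, had a change of 0.17 (SE 0.08, adjusted p = 0.4).

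The other neighbouring lists held no gene past the threshold. Of 8 citrate cycle genes 7 had positive changes, and Sucla2, a succinyl-CoA ligase subunit, read 12.61, 12.55, 12.59 and 12.51 in mutants and 12.30, 12.09, 12.44 and 12.36 in controls. Its groups did not overlap, and the change was 0.24 (SE 0.07, adjusted p = 0.225). Of 10 shuttle genes, which carry cytosolic reducing equivalents to the mitochondrion, 8 had positive changes. Gpd2, the mitochondrial glycerol phosphate dehydrogenase, read 12.58, 12.57, 12.60 and 12.62 in mutants and 12.45, 12.50, 12.40 and 12.40 in controls, with no overlap and a change of 0.17 (SE 0.06, adjusted p = 0.294). In glycogen metabolism 9 of 11 changes were positive, and the smallest p belonged to Pygb, the brain glycogen phosphorylase, at 0.24 (adjusted p = 0.543). The pentose phosphate genes were split 3 to 3, with Pgd, its decarboxylating dehydrogenase, at 0.21 (adjusted p = 0.422). Of the 3 pyruvate dehydrogenase phosphatase genes, Pdp1 had 0.34 (adjusted p = 0.582) and Pdpr -0.05. Glycolytic isoforms outside the list of 39 were split 5 to 5, and the testis forms Pgk2, Gapdhs and Ldhc were never above background. Both tested gluconeogenesis genes, Pcx and Pck2, had negative changes of -0.30 and -0.02, the smaller adjusted p being 0.779.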

How the data were processed

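The deposited table held 1 linear intensity per probe set and array; the submitters' processing notes name MAS5 as the authors' tool. No version or scaling target was found in the sources used here. The mean intensity was the same on every array, while array medians differed by up to 3.76-fold. The 45101 probe sets were named from GEO's platform annotation, updated through RefSeq (GRCm38.p6): 34958 had 1 symbol, 932 several and 9211 none. Intensities plus 16 were turned to log2 and quantile normalised; 64 array controls and the dimmest 40% of probe sets were left out, leaving 27022. Mutant and control arrays (n = 4 each) were compared with limma 3.58.1 in R 4.3.3 (array weights, trended and robust eBayes, 2-sided), with Benjamini-Hochberg adjustment over all 27022 probe sets and a threshold of 0.05. A probe set counted as above background on an array where its signal was over the 90th percentile of the 27 probe sets for bacterial spike controls. The number of arrays limits the precision.

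Each gene was represented by its brightest probe set. Values on every array were to be given for genes past the threshold or with no overlap between groups, the 4 largest positive and 4 largest negative changes among genes above background on at least 2 arrays of each group, and both genes of an isoform pair at an unadjusted p under 0.05. Those of Slc2a1, Slc2a3, Pfkm, Eno2, Ldha, Slc16a3, Pdk1, Gapdh and single dimmer probe sets, and the mention of Hif1a, Pgk2, Gapdhs and Ldhc, were added after the values were seen. From neighbouring lists, genes past the threshold and up to 2 per list with the smallest unadjusted p were named. Sizes were given only where at least 2 arrays in each group were above background. Isoform pairs were tested by exact permutation over arrays, adjusted over 16 pairs, and intervals hold the shifts not rejected at 0.05. Genes, lists and tests were chosen with earlier results of these data known, so no list is independent support. The design text says that 2 noisy control samples were excluded; the table holds 4 control arrays and all were kept. Correlation between arrays was 0.835 to 0.976, so no 2 were copies. The fit was tested on simulated data. Alternatives covered the pseudocount, scaling, filter, weights, eBayes options, an RNA-quality covariate, the replicate number as a block, probe set choice and left-out arrays.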

Additional observations from a re-analysis of the deposited data

Results flagged for a closer look

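Among 64 groups of 4 arrays examined for the 32 tested genes, 1 held an array far from the others, where chance alone gives about 1 in 20. Tpi1, triose phosphate isomerase, read 12.78 on control 3, against 12.62 on the nearest other control array. That gap was 0.843 of the range of the control group, past Dixon's limit at the 95% level.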

How the results depend on the processing

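The count of glycolytic and pyruvate genes past the threshold was 0 in 18 of 21 alternatives. It was 32 higher with arrays centred on their medians, a scaling that moved the median of all probe sets by 1.13, and 0 to 3 higher when 1 array at a time was left out. Over all probe sets, 7 were higher and 5 lower; these counts were 22 and 12 with a pseudocount of 64, 41 and 22 on the authors' scaling alone (where the median of all probe sets was -0.10 and 40.2% were positive), 17322 and 1832 with median centring, 14 and 12 with no filter, 13 and 10 with only probe sets above background on at least 2 arrays of each group, and 10 lower with no array weights. They were 0 and 0 with plain eBayes, 1 and 1 without controls 2 and 3, and 2 and 2 with the 3′ to 5′ ratio as a covariate. Leaving out 1 array gave 3 to 1417 higher and 2 to 371 lower, the highest being without control 1 (1417) and without control 4 (371). The median change of the 32 genes was 0.16 on the authors' scaling, 1.72 with median centring, 0.07 to 0.13 with 1 array left out and 0.06 with the covariate. The number of positive changes was 25 to 32 throughout, of 32 to 34 genes tested depending on the setting. It was 25 of 32 without control 4, where 53.7% of all probe sets were positive. With median centring it was 32 of 32, where 80.8% of all probe sets were positive. The genes with no overlap numbered 0 higher with median centring and 5 to 7 higher otherwise, and 1 lower without controls 2 and 3 and 0 to 1 lower with 1 array left out. The share over all genes was counted only for the main fit. Groups separate more easily with fewer arrays, so these counts cannot be compared with the count on all arrays. Pgam1 turned to 0.033 on the authors' scaling and 1.67 with median centring, and Slc2a4 turned to 1.11 with median centring. Dlat turned to 0.012 on the authors' scaling, 1.38 with median centring, 0.093 without controls 2 and 3, 0.022 with the covariate and 0.018 without the less specific probe set types, and ranged from -0.16 to 0.031 with 1 array left out. Pdhx turned to -0.031 without controls 2 and 3. The isoform pairs at an unadjusted p under 0.05 numbered 1 to 2 with 1 array left out. Pgam2 minus Pgam1 was 0.45 without controls 2 and 3 when the arrays left were normalised again (exact permutation p = 0.0667, the smallest that design allows). The 0.44 given above used values normalised over all 8 arrays. Settings of the fit, the filter and median centring, which do not enter a difference within an array, were not run for the pairs. Same-numbered arrays did not deviate together (correlations of -0.11, 0.01, -0.13 and 0.17), and only number 4 matched best with its own number, so the numbers were not taken as pairs. With the replicate number as a block, 26 probe sets were higher and 34 lower, 0 of the 32 genes passed, and exact permutation by sign flips over the 4 numbers gave p = 0.125 for Pgam2 minus Pgam1, the smallest possible. The cause of these moves was not tested. Genes near background on control 2 or control 3, among them Mpc1, Pdhx, Pfkm, Pfkfb2 and Dld, cannot be sized here.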
